A study of Mus musculus with 6 samples.

Results

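The cytosolic ribosomal protein genes were compared between 3 wildtype (WT) and 3 Mcm8 knockout (KO) libraries of mouse embryo fibroblasts (MEFs). They were taken as every gene that the deposited table lists as protein-coding and whose symbol is Rps, Rpl or Rplp with a number and the usual endings (a, al, l, l1, x), a rule that uses no measured value and leaves out the Rps6k kinases. It found 82 of 55565 genes, 30 of the small subunit and 52 of the large subunit and its stalk, and 8 of them lie on chromosome 17 and are given apart. Rpsa, Rps3a1, Fau and Rack1 are small subunit components by function and fall outside the rule by their symbols. Embryo trunks taken at E13.5 from crosses between Mcm8 heterozygous mice gave the MEFs. KO embryos were homozygous for a CRISPR-Cas9 deletion of exon 7 of Mcm8, a helicase-like protein of DNA repair, and WT embryos carried no deletion. Both genotypes were immortalized by infection with an SV40 lentivirus and selected with puromycin, so that none of the libraries is from primary cells. Whether the 3 libraries of each genotype come from different embryos or cultures is not stated in the sources used here, which speak of 3 biological repeats. The p-values therefore set the genotype difference against variation between these libraries, which may be technical. In edgeR, the main test, that variation was pooled over genes.

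Each ribosome carries a single copy of nearly every ribosomal protein, and cells make the proteins in matched amounts. Their mRNAs are short, very abundant and, in most cases, start with a C followed by a run of pyrimidines, the 5′ terminal oligopyrimidine (TOP) tract through which mTOR signaling controls translation. Mammalian genomes also hold many processed pseudogenes of these genes, which are intronless copies of the mRNA at other loci. A read from a ribosomal protein mRNA can therefore match more than 1 locus, and the submitters' notes name HISAT2 and featureCounts but the sources used here do not say how such reads were counted.

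The sequences of 5 called members, each with a copy called in the other direction, are printed because they show how little sequence separates member and copy. They are coding stretches of GENCODE M21 transcripts (GRCm38, a C57BL/6J reference, while the mice were of mixed C57BL/6J and ICR background), written 5′ to 3′, with capitals at the bases that differ between member and copy. Positions are counted from 1 at the A of the member's start codon, and a substitution gives the member's base first and the copy's base last. Rps18 (chromosome 17) and Rps18-ps5 (chromosome 13) matched over 540 bases with 4 mismatches, of which T11A, A171C and A337C lie in the 456 coding bases, and bases 1 to 211 are shown.
Rps18: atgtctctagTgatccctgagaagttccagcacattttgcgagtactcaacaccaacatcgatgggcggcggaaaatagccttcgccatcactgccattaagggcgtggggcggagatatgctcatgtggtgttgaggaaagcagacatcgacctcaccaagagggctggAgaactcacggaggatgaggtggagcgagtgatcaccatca
Rps18-ps5: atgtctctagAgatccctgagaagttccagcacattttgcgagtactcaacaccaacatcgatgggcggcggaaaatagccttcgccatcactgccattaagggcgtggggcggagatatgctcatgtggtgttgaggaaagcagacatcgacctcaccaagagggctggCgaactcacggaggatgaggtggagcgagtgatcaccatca
Rps2 (chromosome 17) and Rps2-ps13 (chromosome X) differed at 7 of 882 bases, and bases 260 to 493 hold G300A, C444T and C453A.
Rps2: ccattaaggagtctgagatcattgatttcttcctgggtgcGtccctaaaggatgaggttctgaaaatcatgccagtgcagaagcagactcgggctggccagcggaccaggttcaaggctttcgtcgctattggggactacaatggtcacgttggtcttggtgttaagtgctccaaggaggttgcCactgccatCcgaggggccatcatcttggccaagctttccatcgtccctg
Rps2-ps13: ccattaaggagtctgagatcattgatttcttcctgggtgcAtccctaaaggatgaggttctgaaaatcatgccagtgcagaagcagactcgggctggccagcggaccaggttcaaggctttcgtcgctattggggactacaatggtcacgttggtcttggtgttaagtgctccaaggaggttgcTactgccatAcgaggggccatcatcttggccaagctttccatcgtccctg
Rpl26 (chromosome 11) and Gm15772 (chromosome 5) differed at 2 of 438 bases, C177T and T288C, both within bases 137 to 328.
Rpl26: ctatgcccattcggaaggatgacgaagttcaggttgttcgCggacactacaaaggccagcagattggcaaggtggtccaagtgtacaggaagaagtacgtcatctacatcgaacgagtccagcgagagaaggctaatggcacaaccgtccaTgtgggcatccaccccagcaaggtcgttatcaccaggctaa
Gm15772: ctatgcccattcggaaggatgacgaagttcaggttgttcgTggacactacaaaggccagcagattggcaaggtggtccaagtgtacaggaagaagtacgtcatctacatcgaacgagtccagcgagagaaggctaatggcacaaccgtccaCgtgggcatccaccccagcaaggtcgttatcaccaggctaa
Rpl35a (chromosome 16) and Gm10243 (chromosome 6) differed at 1 of 333 bases, G156A, shown with bases 116 to 196.
Rpl35a: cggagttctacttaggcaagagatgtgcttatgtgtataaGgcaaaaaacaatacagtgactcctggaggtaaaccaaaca
Gm10243: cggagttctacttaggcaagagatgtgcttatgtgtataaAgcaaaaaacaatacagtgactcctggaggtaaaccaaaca
Rps27 (chromosome 3) and Rps27rt (chromosome 9) were identical over 341 bases, of which coding bases 1 to 120 are shown once.
Rps27: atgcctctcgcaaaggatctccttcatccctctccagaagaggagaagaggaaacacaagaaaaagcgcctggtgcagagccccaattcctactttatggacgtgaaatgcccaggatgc

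Ribosomal protein mRNAs took 3.75%, 2.82% and 3.08% of all counts in the WT libraries (WT1 to WT3, always in this order) and 3.12%, 3.13% and 3.05% of those in the KO libraries (KO1 to KO3). The WT mean was 3.21% ± 0.479 (SD, n = 3) and the KO mean 3.10% ± 0.0420 (SD, n = 3). The KO libraries lay within the range of the WT libraries, and the WT libraries differed from each other more than the genotypes did. Without the members on chromosome 17 the shares were 2.92% ± 0.442 in WT and 2.88% ± 0.0455 in KO. The small subunit genes held 1.21% ± 0.188 in WT and 1.13% ± 0.0156 in KO, and the large subunit genes 2.01% ± 0.291 and 1.97% ± 0.0283. These are shares of the RNA sequenced, and an equal change of all RNA per cell would not be seen in them. Library totals ran from 12722979 to 19019695 counts in WT and from 15954793 to 21022755 in KO. Mcm8 itself had 176, 233 and 238 counts in WT and 89, 74 and 66 in KO, or 29.6% of the WT level as CPM (counts divided by the scaled library total).

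On the FPKM scale (fragments per kilobase of gene length, scaled to the library total, which allows levels of different genes to be compared), the median member stood at 163 in WT. The 5 highest were Rplp1 (1427 ± 235), which with its partners forms the stalk that recruits elongation factors, Rplp0 (1061 ± 101), the base of that stalk, Rps2 (796 ± 55.5), Rpl4 (741 ± 63.2) and Rpl41 (677 ± 150). In KO the same genes stood at 1400 ± 13.8, 1130 ± 10.5, 575 ± 24.4, 666 ± 8.99 and 705 ± 28.9 FPKM, and of these 5 edgeR called Rps2 different between genotypes. Limma-voom also called Rpl4 lower (-0.14, adjusted p = 0.0393), while edgeR (adjusted p = 0.111) and DESeq2 (adjusted p = 0.150) did not. The 5 lowest of those passing edgeR's filter on low counts (filterByExpr) were Rpl36al (0.775 ± 0.444 FPKM in WT), Rpl24 (0.985 ± 0.334), Rpl21 (1.499 ± 0.445), Rpl39l (2.64 ± 1.68) and Rps10 (3.03 ± 0.412). Rpl24, Rpl21 and Rps10 encode core proteins of every ribosome, and their low levels stood beside sequence copies with more counts than the gene, as described below. Rpl10l, a testis paralog, had no count in any library, and Rpl3l, a muscle paralog, had 0, 0 and 6 counts in WT and 1, 0 and 2 in KO.

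**Figure D1:**
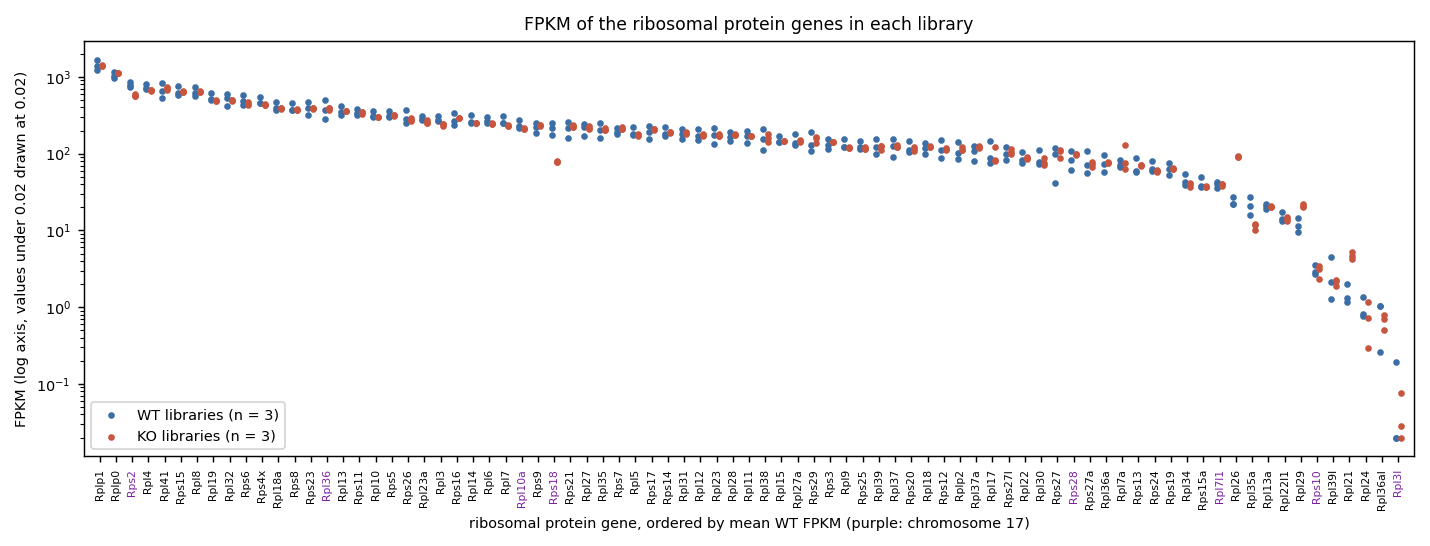
FPKM of 81 ribosomal protein genes (y axis, log scale) in the 3 WT (blue) and 3 KO (red) libraries, ordered by the mean WT level. Most genes lie within a narrow band in which blue and red points overlap, while Rps18, Rpl35a and Rps2 lie lower and Rpl26, Rpl29 and Rpl21 higher in KO.

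Of the 81 members detected in 1 or more libraries, 7 were called higher and 5 lower in KO by edgeR's quasi-likelihood test at a Benjamini-Hochberg adjusted p below 0.05. Over all 26898 genes tested, 4.97% were called higher and 4.03% lower. The median log2 fold change (KO against WT) of the members was -0.023, beside 0.012 for all genes. By the study's rule for differentially expressed genes (DEGs), which also asks for more than a 2-fold change, 3 members passed, Rps18, Rpl21 and Rpl26, beside 2.42% of all genes. Of the 80 members passing filterByExpr, 65 had a log2 fold change within 0.2 of 0. WT and KO libraries did not overlap in 14 of the 80, beside 33.2% of the 14332 genes passing the same filter. Small subunit genes gave 2 higher and 2 lower calls among 30, and large subunit genes 5 and 3 among 51 tested.

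Rps18 (ENSMUSG00000008668, chromosome 17, from 34170973 to 34174975 in GRCm39), a protein of the small subunit's head, fell most. The WT libraries had 612, 424 and 541 CPM of it, and the KO libraries 196, 192 and 193. The highest KO library was below the lowest WT library. The fall was 2.72-fold (log2 fold change -1.44, SE 0.07, adjusted p = 1.51e-94 by edgeR). Rps18-ps5 on chromosome 13, an intronless copy that the table lists as protein-coding, had 33.5, 28.7 and 22.9 CPM in WT and 105, 104 and 98.9 in KO, and was thus higher (log2 fold change 1.87, SE 0.09, adjusted p = 4.72e-102 by edgeR). The rise of the copies, 76.3 CPM, was smaller than the loss of the gene, which fell by 332 CPM. Rps18 with all its copies had 651, 461 and 567 CPM in WT and 308, 303 and 299 CPM in KO, still without overlap (log2 fold change -0.88, SE 0.07, adjusted p = 5.09e-37 by edgeR). 

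Rps2 (ENSMUSG00000044533, chromosome 17, from 24937090 to 24940903), a small subunit protein near the mRNA entry site, had 1568, 1370 and 1448 CPM in WT and 1045, 1020 and 1108 CPM in KO. Every KO library was below every WT library, and the KO mean was 72.4% of the WT mean (log2 fold change -0.47, SE 0.06, adjusted p = 2.38e-12 by edgeR). Rps2-ps13 on chromosome X had 139, 113 and 144 CPM in WT and 276, 289 and 301 CPM in KO (log2 fold change 1.13, SE 0.07, adjusted p = 9.09e-54 by edgeR). Rps2-ps6 on chromosome 14 had 10, 30 and 15 counts in WT and 78, 78 and 94 in KO (log2 fold change 1.94). With 31 copies added, Rps2 had 1789, 1558 and 1661 CPM in WT and 1387, 1375 and 1482 in KO, and the log2 fold change was -0.24 (SE 0.06, adjusted p = 0.00173 by edgeR).

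Of the other 6 members on chromosome 17, Rps28 was called higher and 5 were not called. Rps28 (from 34038001 to 34043536, close to Rps18) had 184, 104 and 142 CPM in WT and 168, 173 and 169 CPM in KO. Its KO values lay inside the WT range, and it was called higher (log2 fold change 0.25, SE 0.07, adjusted p = 0.0102 by edgeR) but not by DESeq2 (adjusted p = 0.638) or limma-voom (0.157). Rpl10a had a log2 fold change of -0.18 (adjusted p = 0.0705), with 667, 530 and 558 CPM in WT and 525, 509 and 519 CPM in KO. Every KO library was below every WT library, and without WT2 (log2 fold change -0.24, adjusted p = 0.00567 by edgeR) or without WT3 (adjusted p = 0.0359) it was called lower. With all libraries, Rpl36 (0.00), Rpl7l1 (-0.01) and Rps10 (-0.03) had log2 fold changes near 0, and Rpl3l was at the floor of the counts. Rpl36 was called higher without WT1 (0.22, adjusted p = 0.00101 by edgeR) and was at -0.17 without WT2, where it was not called. On chromosome 17, 19.9% of 593 protein-coding genes passing filterByExpr were called at adjusted p below 0.05 in either direction, beside 17.4% of 12240 on all chromosomes. Without the chromosome 17 members, 6 members were higher and 3 lower of 73.

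Rpl26 (ENSMUSG00000060938, chromosome 11, from 68792409 to 68797815), a large subunit protein near the exit of the peptide tunnel, rose most. It had 39.1, 32.1 and 31.9 CPM in WT and 133, 135 and 130 CPM in KO, a 3.87-fold rise without overlap (log2 fold change 1.95, SE 0.08, adjusted p = 1.51e-121 by edgeR). Its copy Gm15772 on chromosome 5 was far above it in WT, with 489, 345 and 368 CPM, and fell to 240, 239 and 232 CPM in KO (log2 fold change -0.76, SE 0.07, adjusted p = 2.79e-26 by edgeR). Rpl26 held 7.94% of the counts of gene and copies in WT and 35.8% in KO. Gene and copies together had 530, 378 and 401 CPM in WT and 374, 374 and 362 CPM in KO. The sum was lower in KO, not higher (log2 fold change -0.24, SE 0.07, adjusted p = 0.00688 by edgeR).

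Rpl21 (chromosome 5) and Rpl29 (chromosome 9), both of the large subunit, also rose from a low level. Rpl21 had 6.82, 4.49 and 4.03 CPM in WT and 17.7, 14.4 and 15.7 CPM in KO (log2 fold change 1.67, SE 0.15, adjusted p = 3.92e-26 by edgeR). It held 5.48% of the counts of its family in WT, the smallest share among the members, and its 62 copies were the most of any. Gene and copies had 108, 76.5 and 93.9 CPM in WT and 104, 111 and 113 CPM in KO, which overlap, with a log2 fold change of 0.23 (SE 0.08, adjusted p = 0.0258 by edgeR). Rpl21-ps8 had no counts in WT and 31, 28 and 26 in KO. Rpl29 had 16.5, 10.8 and 12.9 CPM in WT and 22.6, 24.7 and 23.4 CPM in KO (log2 fold change 0.82, SE 0.12, adjusted p = 9.64e-11 by edgeR). With its copies, of which Gm13841 on chromosome 5 held 91.9 ± 21.8 CPM in WT and 79.6 ± 4.17 CPM in KO, it had 139, 92.5 and 128 CPM in WT and 120, 117 and 115 CPM in KO (log2 fold change -0.03, adjusted p = 0.862 by edgeR).

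Rpl35a (chromosome 16), a large subunit protein, had 97.4, 56.5 and 73.9 CPM in WT and 42.9, 36.1 and 41.3 CPM in KO (log2 fold change -0.92, SE 0.08, adjusted p = 2.25e-25 by edgeR). Its copy Gm10243 was higher in KO, with 14.9, 6.49 and 12.2 CPM in WT and 18.2, 18.3 and 18.6 CPM in KO (log2 fold change 0.72). The sum over gene and copies was 133, 78.6 and 102 CPM in WT and 78.7, 72.9 and 78.6 CPM in KO. The sums overlapped, and the fall was less than that of the gene alone (log2 fold change -0.44, SE 0.08, adjusted p = 2.80e-07 by edgeR).

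Rpl3 and Rpl7 fell by less than 1.2-fold but without overlap. Rpl3 (chromosome 15), which lies close to the peptidyl transferase center, had 980, 835 and 880 CPM in WT and 784, 768 and 734 CPM in KO (log2 fold change -0.24, SE 0.06, adjusted p = 0.00335 by edgeR). Rpl3-ps1 on chromosome X was higher (249, 235 and 229 CPM in WT, 263, 280 and 302 in KO), and with copies added the log2 fold change was -0.12 (adjusted p = 0.275). Rpl7 (chromosome 1) had 822, 673 and 690 CPM in WT and 618, 634 and 611 CPM in KO (log2 fold change -0.23, SE 0.06, adjusted p = 0.00603 by edgeR). It held 98.8% of the counts of its family in WT, no copy of it was called, and its log2 fold change with copies was also -0.23. With only genes passing filterByExpr tested, it was not called (adjusted p = 0.0627 by edgeR).

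The 3 remaining rises besides Rps28 were small and overlapped between genotypes. Rps27, a zinc-binding protein of the small subunit, had 122, 42.9 and 103 CPM in WT and 117, 114 and 93.4 CPM in KO. The WT2 value was the lowest, and the identical copy Rps27rt (51.8, 75.4 and 35.6 CPM in WT, 21.4, 25.2 and 37.3 in KO) was highest in the same library. Gene and copies had 175, 118 and 139 CPM in WT and 139, 140 and 131 in KO, and the log2 fold change turned from 0.28 (adjusted p = 0.00504) to -0.08 (adjusted p = 0.642 by edgeR). Rpl7a (chromosome 2) had 147, 119 and 128 CPM in WT and 233, 112 and 134 CPM in KO, so that its call (log2 fold change 0.29, adjusted p = 0.00174) rested on KO1. Without KO1 it was -0.10. Rpl37a had 177, 114 and 153 CPM in WT and 178, 175 and 167 CPM in KO (log2 fold change 0.23, adjusted p = 0.0182). Without WT2 it was at 0.07, and Rps28 was at 0.06. DESeq2 and limma-voom called none of the 4 small rises.

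**Figure D2:**
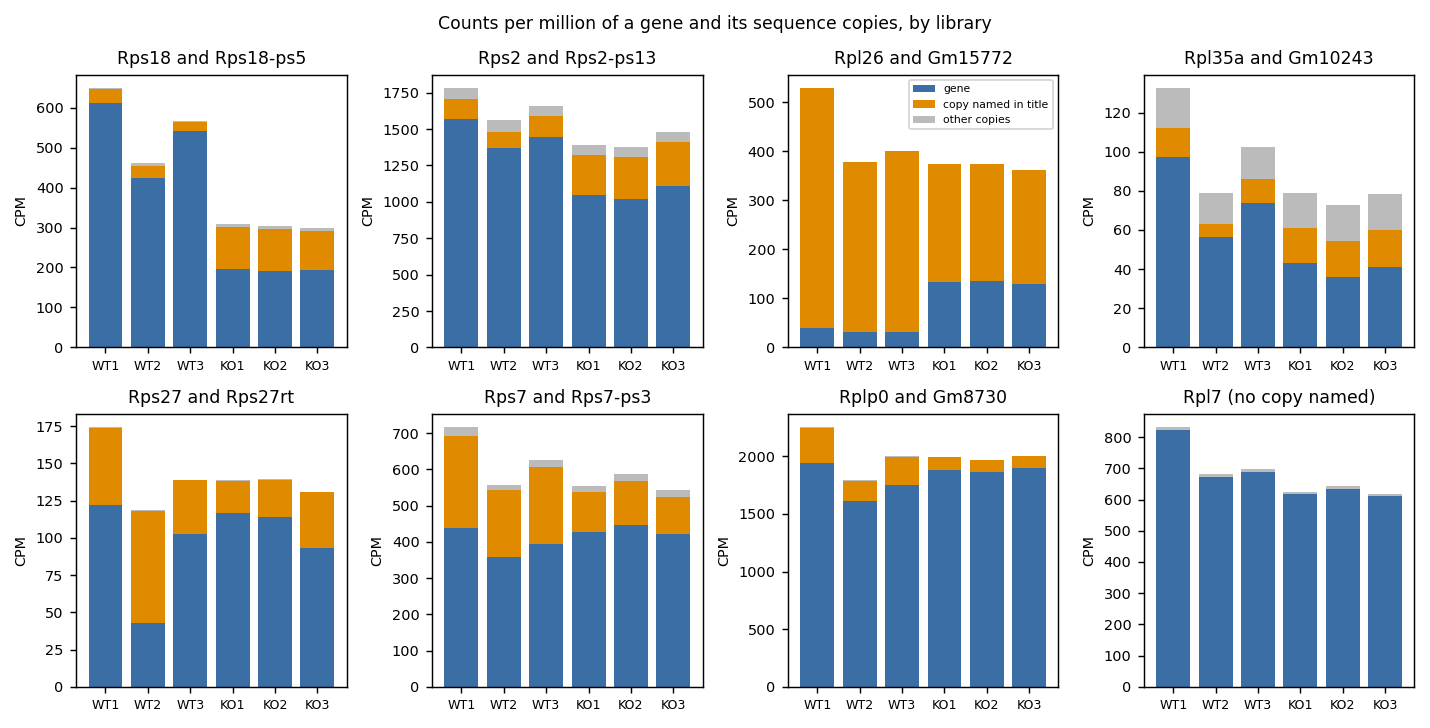
Stacked bars of CPM (y axis, from 0) in each of the 6 libraries for 8 genes (blue), the copy named in each title (orange) and their other sequence copies (gray). The orange part grows in KO for Rps18, Rps2 and Rpl35a and shrinks for Rpl26, Rps7 and Rplp0. The sums of Rps18, Rps2, Rpl26 and Rpl7 are lower in every KO library than in any WT library.

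A sequence copy was defined, after the values had been seen, as a gene at another locus with a transcript at least 95% identical to a member's transcript over at least 150 bases. By this rule 77 members had 616 copies. The median member held 93.3% of the counts of its family in WT. In 7 members the copies held more counts than the member: Rpl21, Rps10, Rpl24, Rpl26, Rpl29, Rpl17 and Rpl7l1. The copies together took 0.428% ± 0.0627 of all counts in WT and 0.398% ± 0.0140 in KO. Of 436 copies with counts, 11 were called higher and 15 lower, beside 4.97% higher and 4.03% lower of all genes. Without KO2, 7 copies were higher, and without WT2 25 were lower. Of the 12 called members, 7 had at least 1 called copy that moved the other way, while Rpl7, Rpl37a, Rps28, Rpl29 and Rpl21 had none. The called members had from 2 (Rps27) to 42 (Rpl21) copies tested, and the same count was not made for the other members. Rps2 also had 2 called copies that fell with it, and Rpl21 had 3 that rose with it.

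With the counts of each copy added to its member, 3 members were called higher (Rpl21, Rpl37a and Rps28) and 5 lower (Rps18, Rpl35a, Rps2, Rpl26 and Rpl7), beside 5.06% higher and 4.09% lower of 26462 genes in that fit. None passed the DEG rule (0 members in edgeR, beside 2.42% of all genes), also at an unadjusted p below 0.05, where 23 members differed by less than 2-fold. The SD of the log2 fold changes over the 80 members was 0.38 for the genes alone and 0.15 with copies, beside 0.50 over all genes passing the filter. With copies, 79 of 80 were within 0.5 of 0, and Rps18 was the exception. Copies also moved without a call in the member. Gm8730, a copy of Rplp0 on chromosome 8, had 305, 172 and 249 CPM in WT and 108, 99.7 and 100.5 CPM in KO (log2 fold change -1.23), while Rplp0 changed by 0.09 (adjusted p = 0.454) and the sum by -0.02. Rps7-ps3 on chromosome X had 254, 185 and 213 CPM in WT and 109, 121 and 104 CPM in KO (log2 fold change -0.96), while Rps7, a small subunit protein that also binds MDM2, changed by 0.12 (adjusted p = 0.325) and the sum by -0.17 (adjusted p = 0.0710). Whether reads were assigned differently between the loci in the 2 genotypes was not tested, since the reads were not used here.

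**Figure D3:**
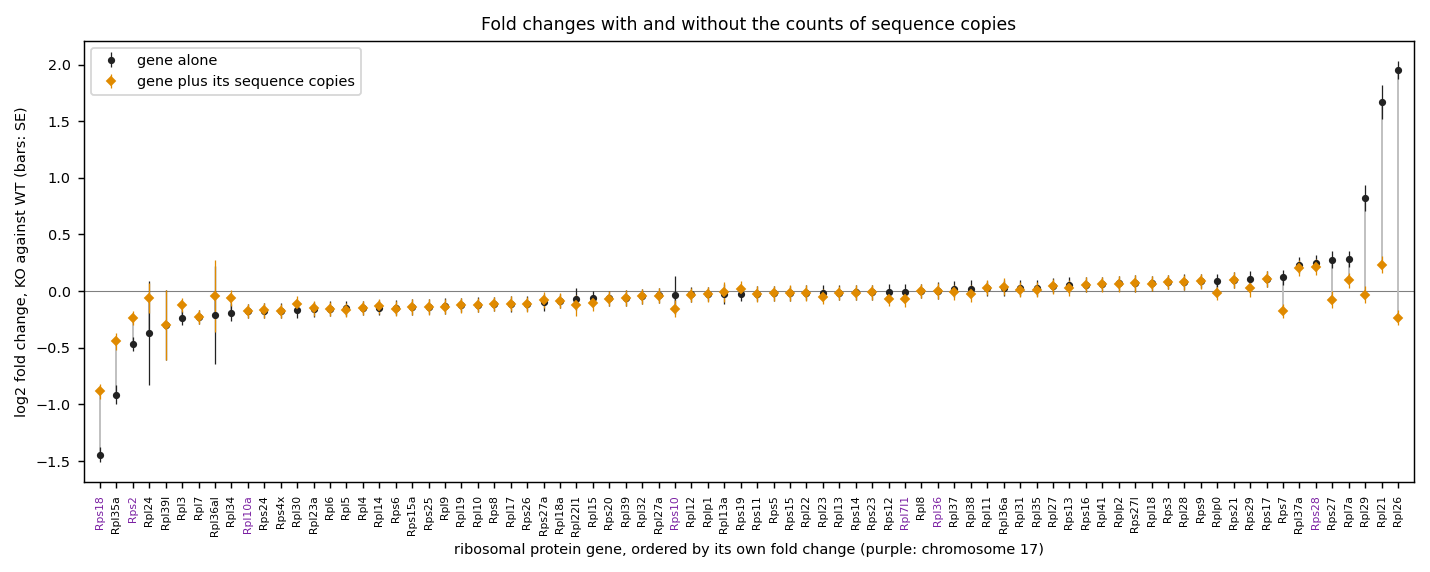
Log2 fold change of KO against WT (y axis, bars are SE) for 80 ribosomal protein genes, for the gene alone (black circles) and with its sequence copies added (orange diamonds). Most pairs of symbols coincide between -0.2 and 0.2, the black circles of Rpl26, Rpl21 and Rpl29 lie far above their diamonds, and Rps18 is the lowest on both scales.

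By the pseudogenes' own symbols (a member's symbol followed by -ps and a number), 304 loci are named for members, 7 of them listed as protein-coding. Of the other 297, 161 were tested, and 7 were higher and 5 lower (4 higher without KO2), beside the same 4.97% and 4.03% of all genes. Past the DEG rule were Rps2-ps13, Rps2-ps6, Rps18-ps5, Rpl21-ps8 and Rps12-ps9. Rps12-ps9 had 37, 174 and 30 counts in WT and 50, 44 and 21 in KO, so that its fall (log2 fold change -1.38) rested on WT2, while Rps12 changed by -0.01. When only named pseudogenes were added to their member, Rps18 was at -0.88 and Rps2 at -0.24, as with all copies, but Rpl26 stayed at 1.95. Rpl35a moved from -0.92 to -0.69, beside -0.44 with all copies. Gm15772 and Gm10243 carry no such name and were not among the counts added here.

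The members moved together among the WT libraries. WT1 was the highest WT library in 79 and WT2 the lowest in 75 of 80 members, and the median member was 1.38 times as high in WT1 as in WT2. As log2 CPM relative to each gene's mean over the 6 libraries, the medians of the members were 0.25 in WT1, -0.20 in WT2 and -0.02 in WT3, and 0.01, 0.00 and -0.04 in the KO libraries. The KO libraries were close to each other, with a median coefficient of variation of 2.85% per member, beside 16.4% in WT. In 52 of 80 members all KO libraries lay inside the WT range. Other protein-coding genes under 1000 bases moved the same way (185 genes, 0.16 in WT1 and -0.21 in WT2), those of 2000 to 4000 bases less (0.05 and -0.05), and those of 4000 bases or more slightly the other way (-0.05 and 0.03). The members of 4000 bases or more (6 genes) were at 0.29 in WT1 and -0.22 in WT2. The 77 mitochondrial ribosomal protein genes were at 0.15 and -0.13. The part of this spread in the genotype comparison was not tested. Without WT1, 37 members were called higher and 5 lower (6.11% and 6.02% of all genes), and without WT2, 4 were called higher and 19 lower (4.70% and 3.78% of all genes). The signs of Rps18, Rps2, Rpl26, Rpl21, Rpl35a and Rpl29 and their calls were the same in both.

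**Figure D4:**
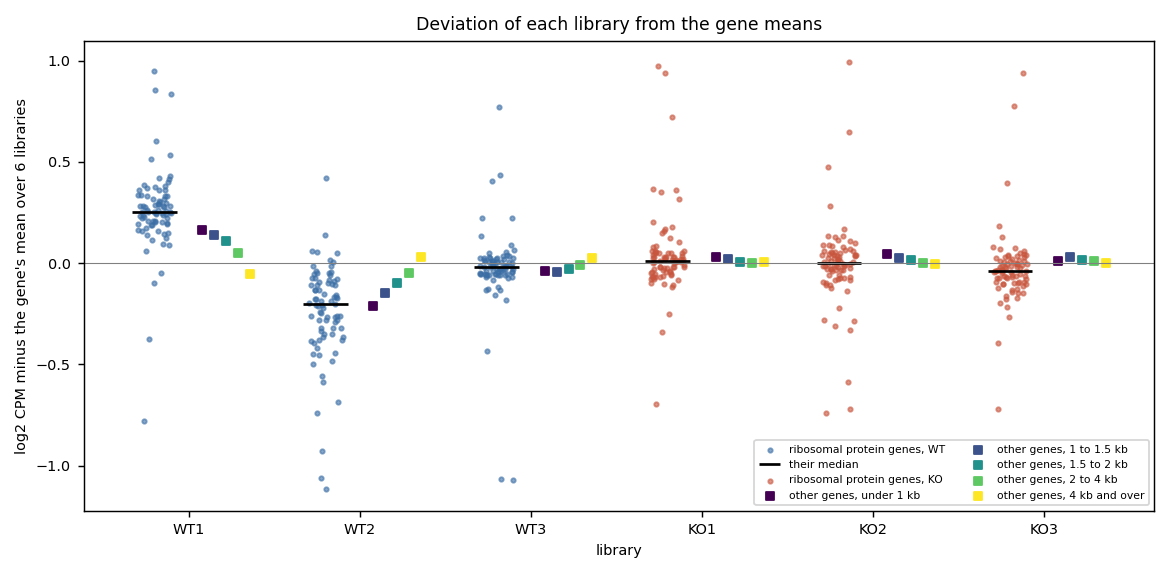
Log2 CPM of each library minus the gene's mean over 6 libraries (y axis) for 80 ribosomal protein genes (points, black line at the median) and the medians of other protein-coding genes by length (squares, in kilobases). The member medians are 0.25 in WT1 and -0.20 in WT2 and near 0 elsewhere, and the shortest other genes follow in both libraries.

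In 6 of 7 paralog pairs with counts, the ratio of the paralogs overlapped between genotypes. Rpl22l1, the paralog of Rpl22, stood at 16.99% ± 0.639 of the Rpl22 FPKM in WT and 16.2% ± 0.964 in KO, with overlap. Rps27l, a p53 target and paralog of Rps27, was itself at 102 ± 19.9 FPKM in WT and 106.5 ± 8.08 in KO, and its ratio to Rps27 (from 96.1% to 202% over the libraries) was highest in WT2, where Rps27 was low. Without WT1, edgeR called Rps27l (0.21, adjusted p = 0.00919) and Rpl22 (0.14, adjusted p = 0.0292) higher. Rpl39l was at 1.97% ± 0.808 of Rpl39 in WT and 1.74% ± 0.0642 in KO, and Rpl36al at 0.988% ± 0.485 of Rpl36a in WT and 0.876% ± 0.186 in KO. Rps4l, a pseudogene in the table, was at 1.01% ± 0.0827 of Rps4x in WT and 1.505% ± 0.410 in KO, also with overlap. The exception was Rpl7l1, at 14.7% ± 0.954 of Rpl7 in WT and 17.2% ± 0.633 in KO, where the libraries did not overlap. Rpl7l1 itself was level and Rpl7 lower. Among single genes passing filterByExpr, 33.2% did not overlap, and that share was not taken for ratios. The 4 members on chromosome X (Rpl10, Rpl36a, Rpl39 and Rps4x) gave no call with all libraries, beside 13.3% of the 406 protein-coding genes of that chromosome passing filterByExpr called in either direction. Rpl36a was called higher without WT1 (0.22, adjusted p = 0.00117 by edgeR), and Rps4x was called lower without WT2 (-0.22, adjusted p = 0.0120 by edgeR) or without WT3 (-0.21, adjusted p = 0.0231 by edgeR). No member lay within 20 Mb of Mcm8.

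Most genes of the lists that work with the ribosomal proteins were not called. With all libraries the calls made were lower, beside 4.03% of all genes called lower and 4.97% higher, and edgeR, DESeq2 and limma-voom called 0 higher. At an unadjusted p below 0.05, where edgeR put 9.47% of all genes higher and 8.47% lower, 0 were higher and 2 lower among the small subunit genes outside the rule, 0 and 6 among the translation factors, 0 and 11 among the biogenesis factors, 1 and 2 among the RNA polymerase I genes, 1 and 4 among the regulators, and 4 and 8 among the mitochondrial ribosomal protein genes. Of these 4 small subunit genes outside the symbol rule, Rps3a1 was lower (from 966 ± 120 CPM in WT, log2 fold change -0.20, adjusted p = 0.0207 by edgeR), but DESeq2 called 0 of the 4 lower, and 0 were lower without WT1 or with any 1 KO library left out. Rpsa (-0.09), Rack1 (-0.16) and Fau (0.06) were not called by edgeR with all libraries. Rack1 was called lower by limma-voom (adjusted p = 0.0367) and, by edgeR, without WT2 (adjusted p = 0.0215) or without WT3 (adjusted p = 0.0486), and Fau was called higher without WT1 (0.17, adjusted p = 0.00110 by edgeR). Of 15 translation factors and related genes with TOP mRNAs, none was higher and 6 were lower (5 with DESeq2 and 4 with limma-voom), with a median of -0.10. They were Eef1a1, which brings aminoacyl-tRNA to the ribosome (-0.22), its exchange factor subunit Eef1b2 (-0.28), Eif3e (-0.21), the nucleolar chaperone Npm1 (-0.31), Nap1l1 (-0.27) and Tpt1 (-0.19). Without WT1 or without WT2 the list again gave 6 lower and 0 higher, and with any 1 KO library left out 4 lower. Of 35 ribosome biogenesis factors, 4 were lower (Ncl, Nop58, Wdr43 and Wdr12) and 0 higher, DESeq2 and limma-voom each called 5 lower, and without WT1 9 were lower and 3 higher. Without KO1 or without KO2, 2 of the biogenesis factors were lower. Of 13 RNA polymerase I genes, Taf1d was lower (-0.23, but not without WT2, with any 1 KO library left out or by limma-voom), and of 14 regulators of ribosomal protein output, Myc, which drives ribosome production, was lower (-0.32, adjusted p = 0.000547 by edgeR). Of 77 mitochondrial ribosomal protein genes tested, Mrps6 (-0.57), Mrps10 (-0.78) and Mrps30 (-0.27) were lower and 0 higher, with a median of 0.00, and DESeq2 and limma-voom each called 2 lower. Without WT1, 2 were lower and 5 higher. 

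The libraries had fibroblast markers at high levels (Col1a1 at 8634 CPM in WT and 9940 in KO), with 3 of 8 markers higher and 3 lower in KO, Thy1 (-1.03) and Pdgfrb (-0.74) among the latter. For these and the following lists, the shares over all genes tested were 4.97% called higher and 4.03% lower. Of 5 epithelial markers, 2 were higher (Krt18 and Krt8), and the summed level of the list was between 0.499 and 1.18 CPM in WT libraries and between 5.53 and 6.68 in KO libraries. Of 4 mesothelial markers Msln was higher, and the sum was between 2.95 and 3.35 CPM in WT libraries and between 43.2 and 48.7 in KO libraries, while Wt1 had 7 counts or fewer in every library and Lrrn4 was at 0. Endothelial and blood cell lists gave no calls in edgeR with all libraries (0 of 4 and 0 of 2 tested, also at an unadjusted p below 0.05). Limma-voom called Tek higher (2.39, adjusted p = 0.0411), and edgeR called Kdr higher without WT2 (0.84, adjusted p = 0.0385). The globin genes Hba-a1 and Hbb-bt were at 0. The highest summed level in any library was 4.33 CPM for the endothelial list and 2.83 CPM for the blood cell list. Fewer cells of a type and less RNA per cell cannot be told apart in bulk RNA, and the part of these differences in the ribosomal protein genes was not tested.

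RefSeq start sites (GRCm38.p6) were matched for 62 of 82 members. A C at the annotated start followed by 4 bases that are each C or T, on the gene's own strand, was present in 19.4% of the 62 and in 2.49% of 27025 genes, and within 5 bases of the start in 45.2% and 18.5%. Start sites in an annotation can be off by some bases. The windows of Rps18, Rps2 and Rpl26 are shown because they differ in this feature, with the 15 bases from the annotated start on in capitals: Rps18 at chr17:33955651-33955680 (minus strand) has the pattern at its start, Rps2 at chr17:24720048-24720077 (plus strand) has it within 5 bases, and Rpl26 at chr11:68901551-68901580 (plus strand) has it in neither place.
Rps18: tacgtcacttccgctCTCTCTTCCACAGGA
Rps2: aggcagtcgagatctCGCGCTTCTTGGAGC
Rpl26: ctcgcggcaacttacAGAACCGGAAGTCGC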

How the data were processed

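RNA sequencing of 3 WT and 3 KO MEF libraries was analysed. The authors aligned read pairs to the Ensembl 106 mouse genome with HISAT2 2.0.5 and counted reads per gene with featureCounts 1.5.0-p3, and the deposited counts are whole numbers that were not normalized. The deposited FPKM values were proportional to counts over gene length in each library. The submitters' notes list GRCm38, while the coordinates in the tables are those of GRCm39. How reads matching several loci were counted is not given in the sources used here.

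The members, gene lists and tests were chosen with earlier results of these data known. Counts were tested with edgeR 4.0.16 (R 4.3.3, quasi-likelihood, TMM) on the 26898 genes whose FPKM exceeded 0 in any library, without covariates, with Benjamini-Hochberg adjustment over all of them. The prior degrees of freedom were infinite, so that p-values are too small for any gene more variable than the common trend. CPM are TMM-scaled, values after ± are SD (n = 3) and SE is that of the fitted log2 fold change. The floor was 3 counts per library. The smallest two-sided p of an exact permutation test is 0.1 at this size.

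Named were the members called by edgeR, the 5 highest and 5 lowest by FPKM, paralog pairs, the members on chromosome 17 and pseudogenes past the DEG rule with their parents. Rps7, Rplp0, Tek and Kdr and the copies Gm15772, Gm13841, Gm10243, Gm8730, Gm4786, Gm12191, Gm6278, Gm15500, Rps27rt, Rpl3-ps1 and Rps7-ps3 were added after their values were seen. Copies were found with blastn 2.17.0 in GENCODE M21 transcripts, and each was added to the member it matched best. Alternatives were DESeq2 1.42.0, limma-voom 3.58.1, RLE size factors, TMM factors from other genes, other filters, a replicate block, each library left out, named pseudogenes added and, chosen after seeing the data, copies added at 95% or 90% identity. A result for 1 listed gene is not reported here.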

Additional observations from a re-analysis of the deposited data

How the results depend on the processing

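The 7 higher and 5 lower calls were the same in number with RLE size factors, TMM factors from other genes, no filter and the replicate block, and each of these made the same 12 calls. The number of higher members was 3 with DESeq2, limma-voom, filterByExpr and copies added at 95% or 90% identity, and from 3 to 37 with 1 library left out (37 without WT1, 4 without WT2 or KO2, 3 without KO1). The number of lower members was 3 without the chromosome 17 members and from 3 to 19 with 1 library left out (19 without WT2, 11 without WT3, 3 without KO3). Members past the DEG rule were 1 with named pseudogenes added and 0 with copies added at either identity, and from 3 to 4 with 1 library left out. The median log2 fold change of the members stayed between -0.05 and -0.01 under the settings with all libraries, and ran from -0.14 to 0.11 with 1 library left out. The KO minus WT share of counts was -0.111 percentage points and ran from -0.309 to 0.155 with 1 library left out. The log2 fold change turned sign with copies added for Rpl26 (-0.24 at either identity), Rpl29 (-0.030, and -0.024 with lower identity) and Rps27 (-0.075 at either identity). With 1 library left out, Rpl7a ran from -0.095 (without KO1) to 0.48 and Rps27 from -0.054 (without WT2) to 0.54. In the first 3 the copies' counts were added to the member and the model was fitted again without separate rows for the copies. The cause of these changes, and of those with a library left out, was not tested. Rps18, Rps2, Rpl35a and Rpl21 kept sign and call in all 16 alternatives, with Rps18 from -1.58 to -0.88 and Rps2 from -0.51 to -0.24. Calls were lost without KO3 for Rpl3, without KO1 or KO3 for Rpl7, without WT2, KO1 or KO2 for Rpl37a, without any of these or KO3 for Rps28, and without KO1 or KO2 for Rps27. DESeq2, limma-voom and filterByExpr each lost the calls of Rpl37a, Rps28, Rpl7a and Rps27, and filterByExpr also that of Rpl7 (-0.23, adjusted p = 0.0627). Over the 12 called members, 153 of 192 alternative values kept sign and call, 31 lost the call and 8 turned sign.

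Deviations from the genotype mean had correlations over genes of -0.02, -0.02 and 0.04 between libraries of the same number. Libraries of different numbers had correlations from -0.02 to 0.04. With 3 libraries per genotype, such values cannot show whether libraries of the same number were prepared together. With the replicate block, 7 members were higher, 5 lower and 3 past the DEG rule, with a median of -0.01. Rpl24 had from 5 to 26 counts a library, and its log2 fold change of -0.37 had an SE of 0.46.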

Other observations

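Among copies that differed between libraries of 1 genotype, Gm4786, a copy of Rpl7a on chromosome 17, had 24.5, 15.8 and 15.6 CPM in WT and 7.36, 18.2 and 9.05 CPM in KO. It was lowest in KO1, the library in which Rpl7a was highest, and was picked from 29 tested copies of Rpl7a. Between KO1 and the other KO libraries it differed by far fewer CPM than Rpl7a did. An exchange of reads between them was not tested. Gm12191, a copy of Rpl30, had 31.6 CPM in KO2 and from 12.2 to 19.2 CPM in the other 5 libraries. Gm6278, a copy of Rplp0, had 74 counts in WT2 and from 8 to 16 counts elsewhere. Gm15500 on chromosome 7, whose 1018 aligned bases are identical to Rpl5, had 78.6, 67.9 and 89.5 CPM in WT and 52.3, 54.7 and 80.4 CPM in KO.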
